A study of Mus musculus with 20 samples.

Results

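The theta, pi, kappa and zeta glutathione transferases and microsomal glutathione transferase 1 were examined in mouse liver RNA-seq. The 9 genes were chosen by symbol (Gstt1, Gstt2, Gstt3, Gstp1, Gstp2, Gstp3, Gstk1, Gstz1 and Mgst1) and joined between the male and the female result table by gene identifier. All 9 had a row in both tables, out of 56884 genes in the male and 18149 in the female table, and all 9 were among the 16283 genes with a mean of at least 10 in both. For each sex, livers of 3 WT mice and 3 Midn-T mice aged 11 to 14 weeks were sequenced. Midn encodes midnolin, a nuclear protein that carries proteins to the proteasome. WT libraries carry the genotype label Midn XTR, a gene-trap cassette in an intron of Midn that leaves the gene expressed until Cre turns it. Midn-T libraries carry the label Midn TR, the trapped state, reached by crossing to Albumin-Cre, which the study used to inactivate Midn in hepatocytes. The state of the allele in other liver cells is not given by the study. Whether the WT mice also carried Albumin-Cre is not given in the sources used here.

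The value used for each gene was the authors' mean of normalized counts over the 6 livers of one sex, in which WT and Midn-T livers weigh equally. These means have no spread between animals, so the differences below are descriptions of 2 sets of livers without a test, and the effect of the trap was not analysed here. Sex cannot be told apart from the libraries and the separate normalization of each table. Fewer cells of a type and less RNA per cell cannot be told apart in bulk liver either.

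Glutathione transferases join the tripeptide glutathione to reactive electrophiles, which makes them more soluble and ready for export. The cytosolic enzymes form classes by sequence. The theta class works on small halogenated compounds and sulfate esters, the pi class on acrolein and other reactive aldehydes and epoxides, and the zeta enzyme, maleylacetoacetate isomerase, serves a step of tyrosine breakdown. The kappa enzyme is found in mitochondria and peroxisomes, and Mgst1 is a membrane protein of the endoplasmic reticulum and outer mitochondrial membrane. In mouse liver, the pi class is known to be more abundant in males.

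The genes lay in 2 clusters and 3 single positions of GRCm39. Gstt3 (chr10:75609940-75617256), Gstt1 (chr10:75618994-75634445) and Gstt2 (chr10:75666948-75673258) were neighbours on the minus strand, 1737 bp and 32502 bp apart. Gstp1 (chr19:4085405-4088068), Gstp2 (chr19:4090285-4096023) and Gstp3 (chr19:4106035-4109569) also lay on the minus strand, 2216 bp and 10011 bp apart. Gstk1 (chr6:42222830-42227386), Gstz1 (chr12:87193898-87225026) and Mgst1 (chr6:138117314-138133774) lay on the plus strand. All 9 are annotated as protein-coding, with coding regions for 155 residues in Mgst1 and 244 in Gstt2 at the extremes.

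The pi genes are shown by sequence because their similarity bears on how their reads can be divided. Below are the first 120 coding bases of each, 5′ to 3′ from the start codon, taken from the GENCODE M39 transcripts, with capitals where a base differs from Gstp1.
Gstp1: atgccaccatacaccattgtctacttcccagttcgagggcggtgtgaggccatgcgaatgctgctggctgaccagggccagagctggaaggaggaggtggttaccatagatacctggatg
Gstp2: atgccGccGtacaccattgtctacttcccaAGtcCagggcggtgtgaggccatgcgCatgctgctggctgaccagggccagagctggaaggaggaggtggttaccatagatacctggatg
Gstp3: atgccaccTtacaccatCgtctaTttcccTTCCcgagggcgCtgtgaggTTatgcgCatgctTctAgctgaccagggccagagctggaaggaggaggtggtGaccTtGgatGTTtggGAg
In this stretch Gstp2 differed from Gstp1 at 6 bases and Gstp3 at 21. Over the whole coding region Gstp1 and Gstp2 were 98.1% identical, with 12 mismatches in 630 aligned bases, whereas Gstp1 and Gstp3 were 73.1% identical. The theta genes were further apart, at 75.7% for Gstt1 and Gstt3, 62.1% for Gstt2 and Gstt3 and 60.6% for Gstt1 and Gstt2.

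The similarity of Gstp1 and Gstp2 reached the length of a read. Of all 150-base windows within the exons of Gstp2, 78.5% had another exact copy in the genome, against 29.2% for Gstp1 and none for Gstp3 or the other 6 genes. No window crossed from one exon to the next, and Gstp2 had only 205. These shares are therefore not the shares of reads that could not be placed. A processed pseudogene, Gstp-ps (chr1:191758120-191758750, minus strand), which was added after the data were seen, had such a copy for 8.92% of its windows, and at 31 bases for 62.6%. Because the authors counted uniquely mapped reads, the levels of Gstp1, Gstp2 and Gstp-ps are uncertain one by one, and their sum is given beside them.

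**Figure D1:**
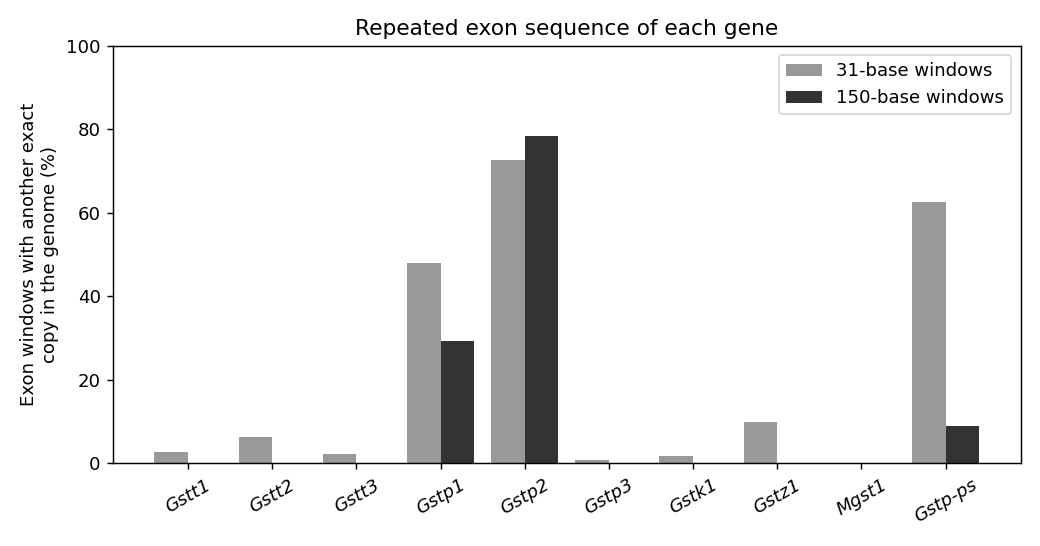
Share of windows of 31 bases (light bars) and 150 bases (dark bars) within each gene's exons that have another exact copy in the genome, in percent. At 150 bases only Gstp1, Gstp2 and Gstp-ps have repeated windows, at 29.2%, 78.5% and 8.92%.

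Gstp1, the main pi-class gene, stood far higher in male livers. Its mean normalized count was 26931 in males and 2101 in females, a 13.3-fold difference after scaling by the median gene (log2 of female over male, -3.73). Of the 16283 genes, 19 had a lower ratio. Gstp1 rested on at least 96682 reads summed over the 6 male livers, from the size factors recovered for the male table.

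Gstp2 and the pseudogene had like ratios at far lower levels. Gstp2 had a mean of 116.3 in males and 11.9 in females, 10.1-fold higher in males (log2 -3.33). Its mean in females was close to the lowest of the female table, 6.61. Gstp-ps had means of 394.1 and 37.9, 10.8-fold higher in males. Gstp1, Gstp2 and Gstp-ps summed gave 27442 in males and 2151 in females, 13.2-fold higher in males. This sum does not depend on how the counted reads were assigned among the 3, but reads that matched several places were not counted.

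Gstp3, the third gene of the cluster, was higher in females instead. Its mean was 293.1 in males and 488.6 in females, 1.61-fold higher in females (log2 0.69), which is inside a fold of 2. Within a sex, where no scaling enters, the mean of Gstp1 was 91.9 times that of Gstp3 in males and 4.30 times in females. Per kilobase of merged exon, which corrects for gene length, the factors were 132.2 in males and 6.19 in females. The neighbouring pi genes had ratios on both sides of 1.

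**Figure D2:**
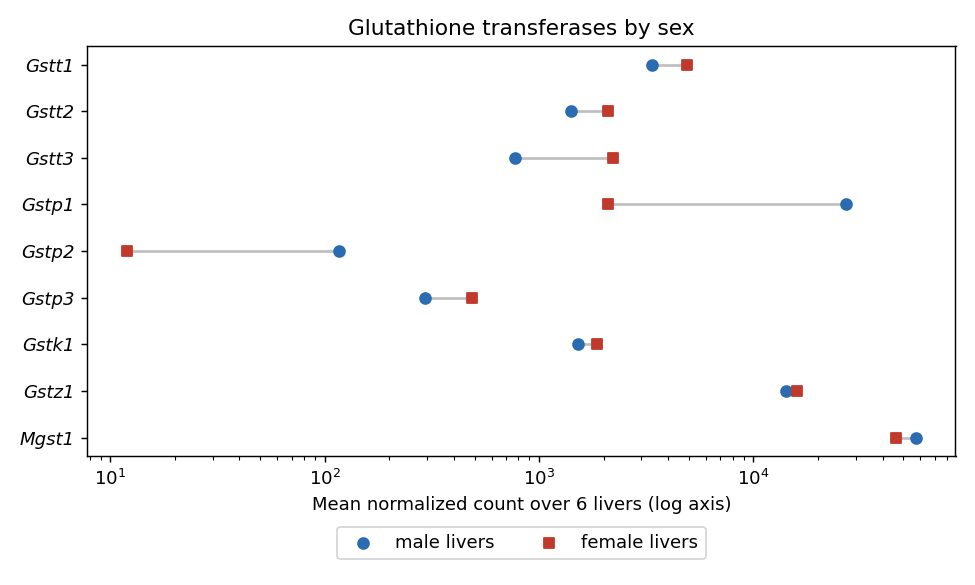
Authors' mean normalized count over 6 livers (log axis) of each gene in male livers (circles) and female livers (squares), before scaling. Gstp1 stands at 26931 in males and 2101 in females, Gstp2 at 116.3 and 11.9, and Gstt3 stands at 775.6 in males and 2221 in females.

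The promoters of the pi genes are shown as sequence context, and their part in the ratios was not tested. No window was drawn for Gstp-ps, which had a ratio of like size to those of Gstp1 and Gstp2. The RefSeq windows (build GRCm38.p6, 250 bases before to 50 after the start, minus strand) are chr19:4037863-4038162 for Gstp1, chr19:4042172-4042471 for Gstp2 and chr19:4059398-4059697 for Gstp3. Capitals mark TGAGTCA, an AP-1 element, and GGGCGG, a GC box, on either strand.
Gstp1: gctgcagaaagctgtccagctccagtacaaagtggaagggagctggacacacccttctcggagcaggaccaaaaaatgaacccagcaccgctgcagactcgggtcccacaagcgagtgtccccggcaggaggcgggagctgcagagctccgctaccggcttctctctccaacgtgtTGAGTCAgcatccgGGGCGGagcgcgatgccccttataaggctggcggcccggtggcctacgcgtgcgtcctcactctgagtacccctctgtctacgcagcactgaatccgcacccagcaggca
Gstp2: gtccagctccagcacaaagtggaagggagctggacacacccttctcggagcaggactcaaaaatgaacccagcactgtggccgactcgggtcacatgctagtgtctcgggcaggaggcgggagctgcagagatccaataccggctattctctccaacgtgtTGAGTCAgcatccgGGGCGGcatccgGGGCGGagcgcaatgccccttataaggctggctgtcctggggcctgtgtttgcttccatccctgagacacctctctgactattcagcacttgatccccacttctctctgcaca
Gstp3: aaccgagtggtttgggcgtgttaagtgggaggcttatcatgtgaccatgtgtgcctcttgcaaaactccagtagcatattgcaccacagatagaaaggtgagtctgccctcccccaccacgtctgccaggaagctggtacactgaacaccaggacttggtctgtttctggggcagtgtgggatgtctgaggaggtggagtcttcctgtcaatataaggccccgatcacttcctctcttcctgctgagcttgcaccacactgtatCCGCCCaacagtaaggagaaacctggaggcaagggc
The windows of Gstp1 and Gstp2 were 76.6% identical over the alignment, against 51.2% for Gstp1 and Gstp3. TGAGTCA, which was added to the search after the sequences were seen, began at position -74 from the start in Gstp1 and at -89 in Gstp2, each time just upstream of a GC box. It was found in 5.2% of 32841 RefSeq promoters of the same length, and in 2 of the 8 genes with a window in the table. Because TGAGTCA was added after these windows were seen, that count cannot be set against that share. Gstt3, Gstz1 and Mgst1 had 2 windows each, 11 in all, so a count of genes with a match is not on the same footing as the share of single promoters. The antioxidant response element core was searched only as TGACNNNGC, with C after TGA. That form was found in 12.4% of all promoters and among the 8 genes only in Mgst1, in the first of its windows. In Gstp1 and Gstp2 the AP-1 site reads TGAGTCAgc, which differs from TGACNNNGC only in the base after TGA. Cores with G in that place were not searched for, so whether the pi promoters carry an antioxidant response element was not tested. GGGCGG was found in 35.7% of promoters and in 6 of the 8 genes. TTCNNNGAA, the core of a STAT5 element, was found in 8.3% of promoters and in 1 of the 8 genes, in the other window of Mgst1. These are matches of letters on both strands, and no binding was measured.

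The theta genes each had a higher mean in females, but only Gstt3 passed a fold of 2. Gstt3 had a mean of 775.6 in males and 2221 in females, 2.76-fold higher in females (log2 1.47), and 118 of the 16283 genes had a higher ratio. Gstt1, which handles small halogenated compounds, had means of 3351 and 4884, 1.41-fold higher in females. Gstt2, known for sulfatase activity toward sulfate esters, had means of 1407 and 2106, 1.44-fold higher in females. Both lay inside a fold of 2. Of all genes, 10.1% had a higher ratio than Gstt1 and 8.83% a higher one than Gstt2. Gstt1 exceeded Gstt2 by about the same factor in both sexes, 2.38 in males and 2.32 in females by mean. By mean, Gstt1 exceeded Gstt3 4.32-fold in males and 2.20-fold in females. These factors are not corrected for gene length. Per kilobase of merged exon, Gstt1 exceeded Gstt2 4.08-fold in males and 3.97-fold in females. On that measure it exceeded Gstt3 5.83-fold in males and 2.97-fold in females. Summed, the 3 theta genes reached 5534 in males and 9210 in females, 1.61-fold higher in females. A further theta gene, Gstt4, named after its value was seen, had a male mean of 0.145, the value of 1 read in 1 library.

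The remaining 3 genes lay inside a fold of 2. Gstk1, the kappa enzyme, had means of 1521 in males and 1863 in females, 1.18-fold higher in females. Gstz1, the zeta enzyme, had means of 14172 and 15988, 1.09-fold higher in females. Mgst1 had means of 57300 and 46361, 1.28-fold higher in males. Of all genes, 23.9% had a higher ratio than Gstk1, 34.8% a higher one than Gstz1 and 10.9% a lower one than Mgst1.

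Past a fold of 2, 1 of the 9 genes was higher in females (Gstt3) and 2 were higher in males (Gstp1 and Gstp2). Of all 16283 genes, 1.99% were at least 2-fold higher in females and 1.5% at least 2-fold higher in males. The 2 genes higher in males are the near-identical copies described above. The median log2 ratio of the 9 genes was 0.24, beside 0 for all genes by construction, and 6 of the 9 were above 1 in female over male ratio.

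**Figure D3:**
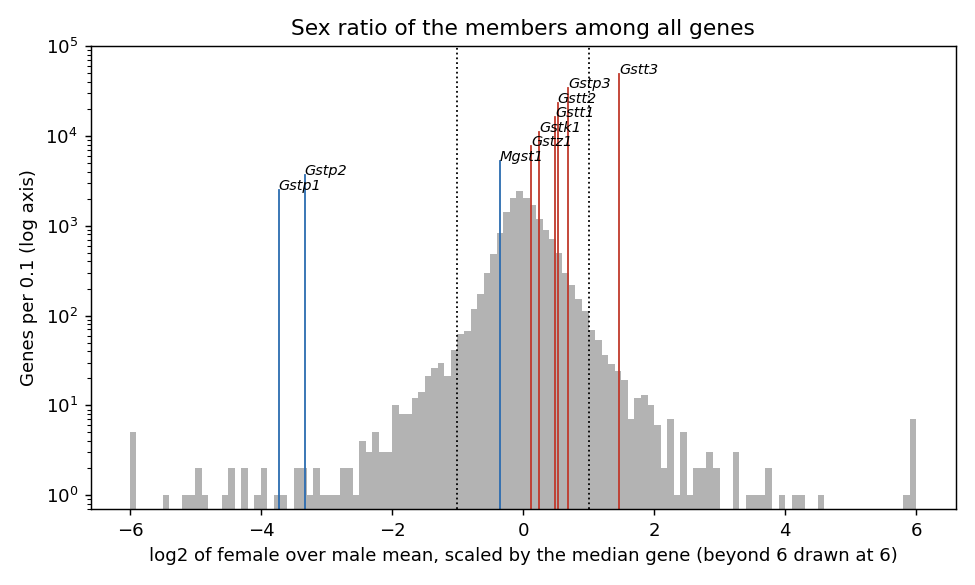
Number of genes (log axis) by log2 of the female over male mean, scaled by the median gene, for 16283 genes, with each of the 9 genes as a vertical line whose height has no meaning and dotted lines at a fold of 2. Gstp1 and Gstp2 stand at -3.73 and -3.33, Gstt3 at 1.47, and the other 6 between -0.36 and 0.69.

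Per kilobase of merged exon, which allows genes to be compared, Mgst1 led in both sexes. Its level was 28171 per kb in males, place 36 of the 16213 genes with a mean of at least 10 in both tables and an exon length, and 22793 per kb in females, place 44 of the same genes. In males Gstp1 followed at 16492 per kb, place 62, then Gstz1 at 1322, Gstt1 at 1171, Gstk1 at 949.5, Gstt2 at 287.2, Gstt3 at 201.0, Gstp3 at 124.7 and Gstp2 at 97.4. In females Gstp1 stood at 1287 per kb, place 625, below Gstt1 at 1707 and Gstz1 at 1492 and above Gstk1 at 1163. Gstt3 at 575.4 then stood above Gstt2 at 429.8, in the opposite order to males, but per kb of coding length Gstt2 stood above Gstt3 in both sexes, at 2676 and 2043 in females and 1788 and 713.6 in males. They were followed by Gstp3 at 207.9 and Gstp2 at 9.99. Gstp1 made up 33.8% of the summed level per kb of the 9 genes in males and 4.34% in females, and Mgst1 57.7% and 76.8%. Without a spread between animals, it cannot be said which neighbours in these orders differ. The merged exons of Gstz1 span 10718 bases, far more than its coding region of 648, so its level per kb depends on the length used.

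**Figure D4:**
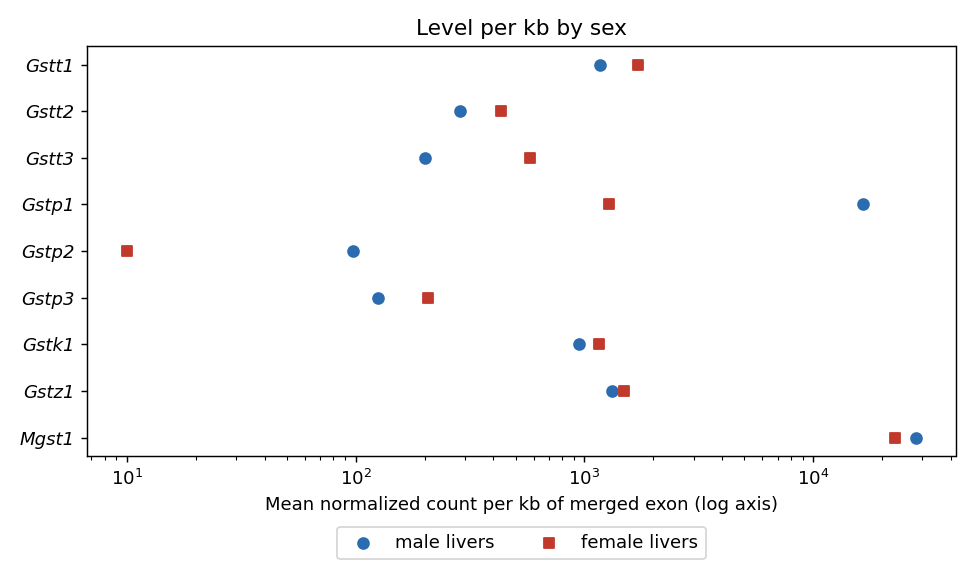
Mean normalized count per kb of merged exon (log axis) of each gene in male livers (circles) and female livers (squares). Mgst1 is highest in both sexes, and Gstp1 goes from 16492 per kb in males to 1287 in females.

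Other glutathione genes were read as context from lists drawn up by function. Genes were called measured with a mean of at least 10 in both tables. Among 13 measured of 18 listed alpha, mu, omega and other transferases, none was past a fold of 2. The log2 ratios of the 13 ran from -0.39 to 0.69 (median -0.02). Of the listed genes left out, named for that reason, Gsta1 and Gsta13 had male means of 40.9 and 24.6 and no female value. Gsto2 and Mgst2 had means of 2.30 and 9.26 in males and 8.02 and 11.8 in females, and Gstt4 is given above. Gstm1, a mu-class enzyme, was the highest of the 13 per kb, at 12990 in males and 10421 in females. None of 10 measured genes of glutathione supply passed, with Cth, which makes cysteine from cystathionine, the highest at 1828 and 2069 per kb. None of 9 peroxidase and glyoxalase genes passed, with Gpx1, the abundant cytosolic glutathione peroxidase, at 19733 and 19434 per kb.

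In the steps after conjugation, 1 of 11 measured genes passed. Nat8, which acetylates cysteine conjugates to mercapturic acids, had a mean of 450.0 in males and 20.2 in females, 23.0-fold higher in males. Abcc2, which exports glutathione conjugates into bile, was the highest of them per kb, at 5457 and 4411. None of 5 genes of tyrosine breakdown, the pathway of Gstz1, passed. Tat, its first enzyme, was the highest in males at 25692 per kb, and Hpd, the next enzyme, in females at 20659. Of 11 regulators 1 passed, the repressor Bcl6, with means of 2351 in males and 1079 in females, 2.26-fold higher in males. Hnf4a, a hepatocyte nuclear receptor, was the highest at 4606 and 3948 per kb.

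**Figure D5:**
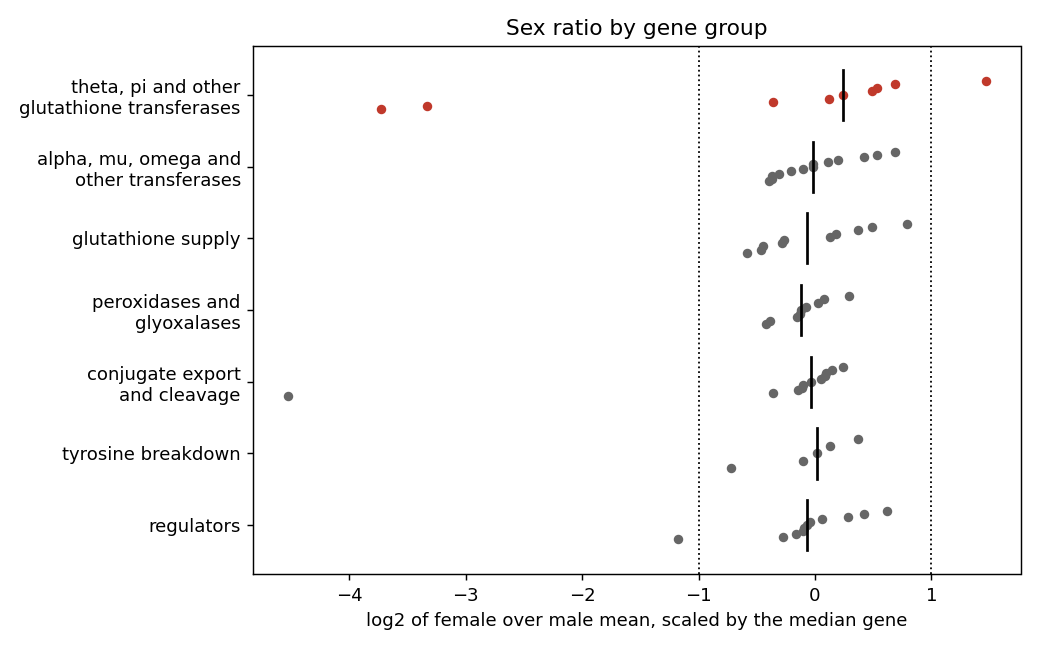
log2 of the female over male mean, scaled by the median gene, for each measured gene of 7 groups, with the group median as a vertical bar and dotted lines at a fold of 2. Outside the 9 glutathione transferases (top row), Nat8 and Bcl6 pass a fold of 2, both higher in males, at -4.53 and -1.17.

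The tables matched their sex labels and their tissue. Xist had a mean of 72478 in females and 14.0 in males. Of 10 listed male-biased liver genes 9 were measured, and 9 of 9 were at least 2-fold higher in males. Of 10 listed female-biased ones 4 were measured, and 4 of 4 were at least 2-fold higher in females. The female-biased genes left out had male means below 10. Both lists were chosen with earlier results of these data known, so these counts are no independent check. Hepatocyte markers led, with Alb at 338350 per kb in males and 457260 in females. None of 28 measured markers of hepatocytes, cholangiocytes, Kupffer, stellate, endothelial cells and leukocytes passed a fold of 2. The summed level per kb of the stellate markers was 486.2 in males and 646.3 in females, that of the cholangiocyte markers 346.6 and 396.1, and that of the Kupffer markers 2931 and 3023. For endothelial markers the sums were 1176 and 1370, for leukocyte markers 81.5 and 87.2, and for hepatocyte markers 576100 and 672100. Markers above 1 in female over male ratio were 5 of 5 stellate, 4 of 5 cholangiocyte and 2 of 5 Kupffer. So were 4 of 4 endothelial, 3 of 3 leukocyte and 3 of 6 hepatocyte markers. Ratios ran from Marco, 1.57-fold higher in males, to Krt19, 1.86-fold higher in females. The part of the markers in the ratios of the transferases was not tested. Midn itself had means of 1672 and 1357, which pool WT and trapped livers and so do not check the trap.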

How the data were processed

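Livers of 12 mice were profiled by stranded, rRNA-depleted RNA-seq, 6 of each sex, of which 3 were WT and 3 Midn-T. Per the study's methods, 150-base paired reads were aligned to GRCm39 with STAR (2.7 in the submitters' processing notes), uniquely mapped reads were counted with HTSeq on Ensembl genes, and DESeq2 was run within each sex. The deposited signal used here is the authors' mean over the 6 samples of one sex of counts divided by DESeq2 size factors. The other deposited columns hold the authors' own WT against Midn-T comparison (log2 fold change, its error, statistic, p-value and adjusted p-value) and were not used, nor were the ATAC-seq peak lists, which hold peaks called in that comparison.

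The female mean was divided by the male mean and by the median of this ratio, 1.036, over genes with a mean of at least 10 in both tables. A fold of 2 was called, without a test, since means have no spread. Levels per kb used merged exons of GENCODE M39, and promoters came from RefSeq (GRCm38.p6), with 8 of 9 members matched (not Gstt2). Copies of exon windows were counted over the whole GRCm39 genome. Genes with few male reads had means that were whole multiples of 6 steps (5018 of 5018 means under 0.5, within 1e-05), which gave size factors from 0.598 to 1.27 and bounds on reads. The shallowest male library, below the next at 0.938, could not be matched to a sample or left out of the means. The totals per sample are not analysed here. Members and lists were chosen with earlier results of these data known. The text names the 9 members and, in each list, the genes past a fold of 2 and the gene of highest level per kb; the exceptions are stated. The ratio step was tested on simulated data. Python 3.11.15, numpy 2.4.6, pandas 2.3.3 and biopython 1.88 were used.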

Additional observations from a re-analysis of the deposited data

How the results depend on the processing

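The ratios of the 9 genes kept their direction without scaling, with scaling by the sum of all means or by housekeeping genes, with genes joined by symbol and with every gene in both tables, and those of the 8 genes other than Gstp2 also at a minimum mean of 100, which Gstp2 misses. The sums of Gstp1, Gstp2 and Gstp-ps, an alternative added after the data were seen, gave a female over male ratio of 0.0757, beside 0.0753 for Gstp1 alone. Each scaling multiplied the ratios of all genes by 1 common factor, from 0.984 with every gene to 1.115 by housekeeping genes. A ratio was marked as moved when it left a 95% binomial interval, computed as if the 2 rounded means were read counts. This interval holds no spread between animals and is no test. It is narrower for genes with higher means, so the ratios marked as moved are those of such genes. For Mgst1, 0.781 became 0.809 without scaling, 0.796 by the sum, 0.871 by housekeeping genes, 0.805 at a minimum of 100 and 0.769 with every gene. For Gstz1, 1.09 became 1.13 without scaling, 1.21 by housekeeping genes and 1.12 at a minimum of 100. Housekeeping genes also gave 1.57 for Gstt1, 1.61 for Gstt2, 3.08 for Gstt3, 0.0840 for Gstp1 and 1.32 for Gstk1, since that scaling moves the median of all genes by 0.16 (log2). Past a fold of 2, the count higher in males fell from 2 to 1 at a minimum of 100, where 0.973% of all genes were higher in males, and at a fold of 1.5 the count higher in females was 2, where 7.31% of all genes were. In females, the place by level per kb differed for 2 members with the longest transcript and for 5 with coding length, which also ended the order of Gstt3 above Gstt2; in males it differed for 0. No paired analysis was possible because the means pool all samples of a sex, and for the same reason no replicate could be left out. Depth limits Gstp2 most, at 11.9 in females.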
